A study of Mus musculus with 9 samples.

Results

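Integrins are receptors of an alpha and a beta chain that hold leukocytes to other cells and to matrix. The 37 genes described here encode integrin chains, their immunoglobulin-family ligands, the selectin ligand Selplg, junctional adhesion molecules, CD44, CD47, the tetraspanin CD9 and the activators Fermt3 and Tln1. They were chosen by gene symbol, and each was read from its probe set with the highest mean over all 9 arrays. Of the 37 genes, 36 had a probe set that names no other gene, and Itgad had none and was not analysed here. Of the 36, 33 had a mean at or above 2.66 on the log2 scale and were tested, among 13078 tested genes in all. Itga8, Itgae and Itgb6 lay under that value.

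The arrays were Affymetrix MOE430, hybridised with RNA of adherent spleen cells from C57BL/6 mice that had been pulled out with magnetic beads against CD11b, the product of Itgam. The threat group, labelled HighThreat, held 6 animals after repeated social threat, with 1 animal per array. The control group, labelled LowThreat, held 6 animals kept without threat and pooled by 2, which gave 3 arrays. A control array therefore averages 2 animals. The sources used here give no allele, agent, age or batch for either group. Values are log2 expression as deposited, and every difference is threat minus control, so a difference of 1 is a doubling of the signal.

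The beta2 integrins share the chain encoded by Itgb2 and are the integrins of leukocytes: with Itgam it forms CD11b/CD18, which binds complement fragments and ICAM-1, with Itgax it forms CD11c/CD18, and with Itgal it forms LFA-1. The beta1 integrins bind matrix proteins such as fibronectin and laminin, and alpha4 beta1 binds VCAM-1. Integrins at rest bind weakly, and talin (Tln1) and kindlin-3 (Fermt3) open them by binding the tail of the beta chain.

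Promoters of 4 genes are shown, chosen after their values were seen and not by size of difference alone. Itgam encodes the antigen of the sort and was higher in threat animals, and Itgax, which lies near it on chromosome 7 with 1 annotated gene model between them, was lower. F11r had the largest rise of the 33 tested genes, and Cd9 was a brightly measured gene that fell. Each window runs from 250 bases before to 50 bases after the RefSeq gene start on GRCm38.p6 and is written 5′ to 3′. Capitals mark GAGGAA or its reverse complement TTCCTC, letters that the myeloid transcription factor PU.1 is known to bind, searched on both strands.
Itgam, chr7:128062390-128062689, plus strand: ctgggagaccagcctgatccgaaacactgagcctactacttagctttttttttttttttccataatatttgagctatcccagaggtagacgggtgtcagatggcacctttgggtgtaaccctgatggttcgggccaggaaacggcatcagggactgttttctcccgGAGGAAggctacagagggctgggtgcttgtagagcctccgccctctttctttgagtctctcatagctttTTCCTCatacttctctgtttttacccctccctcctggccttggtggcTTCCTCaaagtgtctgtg
Itgax, chr7:128129300-128129599, plus strand: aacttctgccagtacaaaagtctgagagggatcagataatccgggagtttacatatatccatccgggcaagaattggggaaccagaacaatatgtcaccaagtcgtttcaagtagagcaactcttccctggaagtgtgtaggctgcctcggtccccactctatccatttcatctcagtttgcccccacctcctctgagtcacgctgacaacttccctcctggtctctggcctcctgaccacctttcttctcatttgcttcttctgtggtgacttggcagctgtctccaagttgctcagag
F11r, chr1:171437311-171437610, plus strand: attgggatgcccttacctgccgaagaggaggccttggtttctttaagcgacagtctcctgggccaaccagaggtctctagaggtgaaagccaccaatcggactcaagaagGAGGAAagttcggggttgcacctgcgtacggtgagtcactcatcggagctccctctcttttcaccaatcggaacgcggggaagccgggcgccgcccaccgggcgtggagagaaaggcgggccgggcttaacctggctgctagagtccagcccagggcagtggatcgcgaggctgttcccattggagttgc
Cd9, chr6:125494711-125495010, minus strand: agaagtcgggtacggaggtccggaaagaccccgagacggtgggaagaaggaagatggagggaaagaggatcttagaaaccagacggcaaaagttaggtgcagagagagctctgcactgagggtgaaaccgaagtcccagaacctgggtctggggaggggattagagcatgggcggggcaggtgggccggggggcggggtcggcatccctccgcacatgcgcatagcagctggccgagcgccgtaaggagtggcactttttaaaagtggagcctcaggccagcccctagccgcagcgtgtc
The Itgam window held 3 such matches, that of F11r 1, and those of Itgax and Cd9 none. Over all 32851 windows of this length 28.3% held at least 1 match. Of the 33 tested genes 21 had a window, and 9 of these held a match: 4 of 9 genes that were higher in threat animals and 1 of 3 that were lower. The 28.3% is a share of windows, whereas the 9 of 21 counts genes with a match in any window. Itga3 and Cd47 had more than 1 window, and Itga3 held a match in only 1 of its windows. A match is a string of letters and not a measured binding site.

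The whole data set sets the scale for what follows. The labels call the cells monocytes. Array medians lay between 3.19 and 3.22. Limma called 45.8% of the 13078 genes at a Benjamini-Hochberg adjusted p under 0.05, 23.8% as higher and 22.0% as lower in threat animals, so a call on its own is common here. General myeloid genes marked the sort in every array, with a mean of 10 genes between 10.98 and 11.03 in threat and between 10.58 and 10.66 in control arrays. The granulocyte markers leaned to the threat group, with 14 of 15 called higher, as did those of Ly6C-high monocytes (4 of 6 higher, none lower). Called lower were 8 of 9 B cell, 7 of 8 natural killer cell, 8 of 9 dendritic cell, 4 of 7 T cell and 6 of 8 Ly6C-low monocyte markers, the other 2 of the last list being higher. Erythroid (1 of 3 higher) and stromal (2 of 5 higher) markers mostly did not pass. The 3′ to 5′ difference of beta-actin probe sets, a sign of RNA integrity, was 0.356 ± 0.034 in threat and 0.472 ± 0.063 in control arrays (SD, n = 6 and 3, exact permutation p = 0.0238). The same measure for Gapdh was -0.071 ± 0.088 in threat and -0.0353 ± 0.052 in control arrays (SD, exact permutation p = 0.512). The part of these shifts in the differences below was not tested.

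Adhesion genes moved in both directions. Of the 33 tested, 13 rose and 8 fell, 63.6% called against 45.8% of all genes. The median difference was 0.07, against 0.03 over all genes, and the median absolute difference was 0.23, against 0.15. Brighter probe sets were called more often throughout: of 19 adhesion genes with a mean of at least 6 on the log2 scale, a limit set after the values were seen, 78.9% were called, against 65.9% of all such genes, and of the 14 dimmer ones 42.9%, against 35.2%. The values of the groups did not overlap for 19 of the 33 genes (12 higher and 7 lower), against 41.8% of all genes (21.5% higher and 20.3% lower). A difference of at least 1.5-fold was seen in 6 of the 33, against 11.2% of all genes: F11r and Itgb5 were higher and Itgax, Vcam1, Cd9 and Pecam1 lower in threat animals. In RNA of mixed cells, fewer cells of a type and less RNA per cell cannot be told apart.

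**Figure D1:**
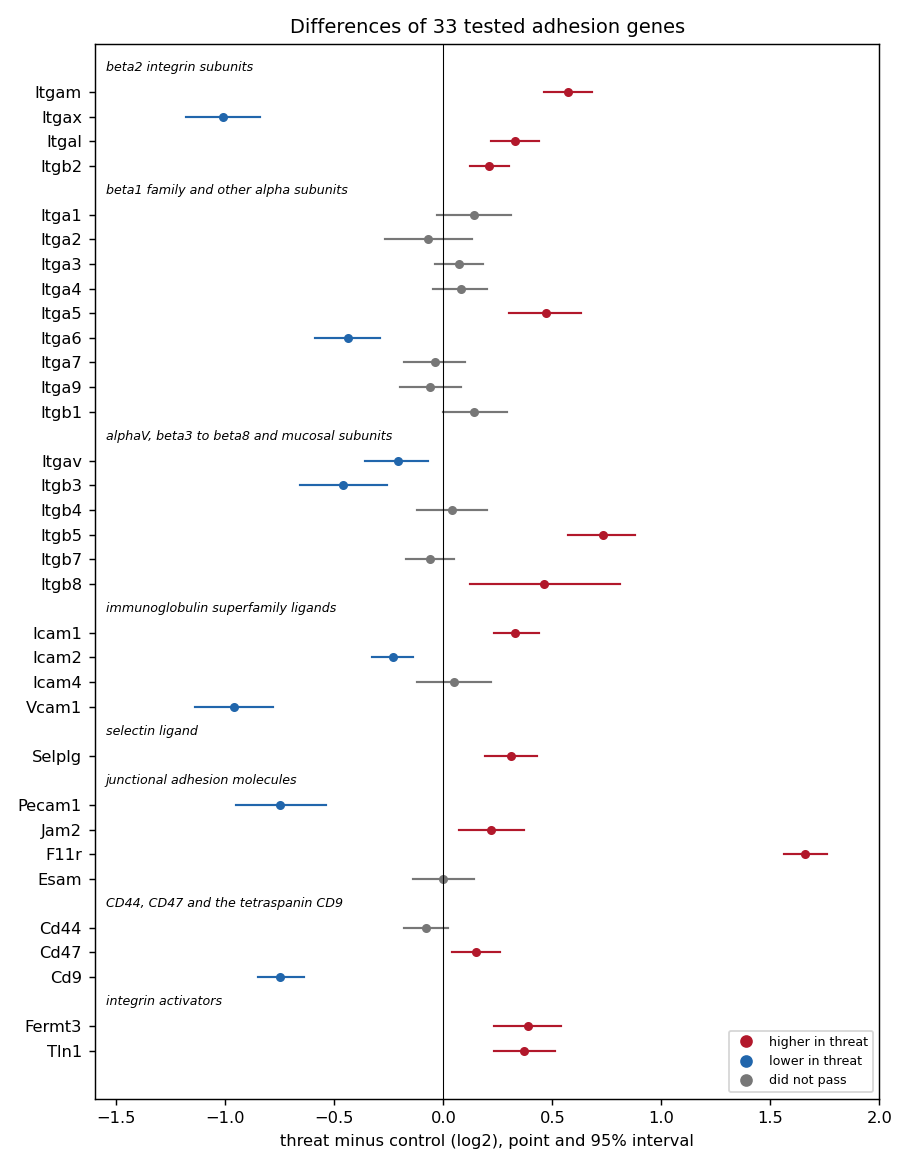
Difference of each of the 33 tested adhesion genes between 6 threat arrays and 3 control arrays (horizontal axis, log2, threat minus control), grouped by role. Points are limma estimates, lines are 95% intervals and colours give the call. F11r lies farthest to the right at 1.66 and Itgax farthest to the left at -1.01.

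Among beta2 integrin chains, 3 rose and 1 fell, and all 4 passed. Itgam, the gene of the antigen used for the sort, had a lowest value of 8.39, a median of 8.51 and a highest value of 8.58 in threat animals, against 7.91, 7.96 and 7.92 in the control pools. Every threat animal lay above every pool. The difference was 0.57 (SE 0.051, 1.48-fold, adjusted p = 1.7e-06). General myeloid genes were higher in the same arrays, 9 of 10 of them called, with differences of 0.73 for Fcgr3 (SE 0.071), 0.69 for Adgre1 (SE 0.055), 0.58 for Cd14 (SE 0.044) and 0.12 for Lyz2 (SE 0.044). Their part in the difference of Itgam was not tested. Its partner Itgb2 ran from 11.04 through a median of 11.07 to 11.09 in threat animals, against 10.83, 10.88 and 10.86 in the pools. These ranges too were apart, although the difference of 0.21 was small (SE 0.042, 1.16-fold, adjusted p = 0.00121). Among threat animals, animal 4 was highest and animal 6 lowest in both genes.

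Itgal, the alpha chain of LFA-1 that lymphocytes carry as well, had 10.21, a median of 10.26 and 10.34 in threat animals, against 9.85, 10.01 and 9.95 in the pools. The groups were apart, with a difference of 0.33 (SE 0.051, adjusted p = 1.6e-04), and a further Itgal probe set differed by 0.43 (adjusted p = 0.00392). Itgax, a marker of dendritic cells that some macrophages and natural killer cells share, went the other way. It ran from 7.56 through a median of 7.71 to 7.82 in threat animals, against 8.59, 8.62 and 8.91 in the pools. No threat animal came within the range of the pools, and the difference was -1.01 (SE 0.078, 2.01-fold lower, adjusted p = 4.4e-07). Beside it, 8 of 9 dendritic cell markers were called lower, and their mean per array lay between 4.66 and 4.72 in threat and between 5.47 and 5.60 in control arrays. The homing receptor Ccr7 fell by 1.89 on the log2 scale (SE 0.050). Natural killer cell markers, whose mean per array was 3.86 to 4.07 in threat and 5.74 to 5.97 in control arrays, fell in the same arrays. Their part in the difference of Itgax was not tested.

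**Figure D2:**
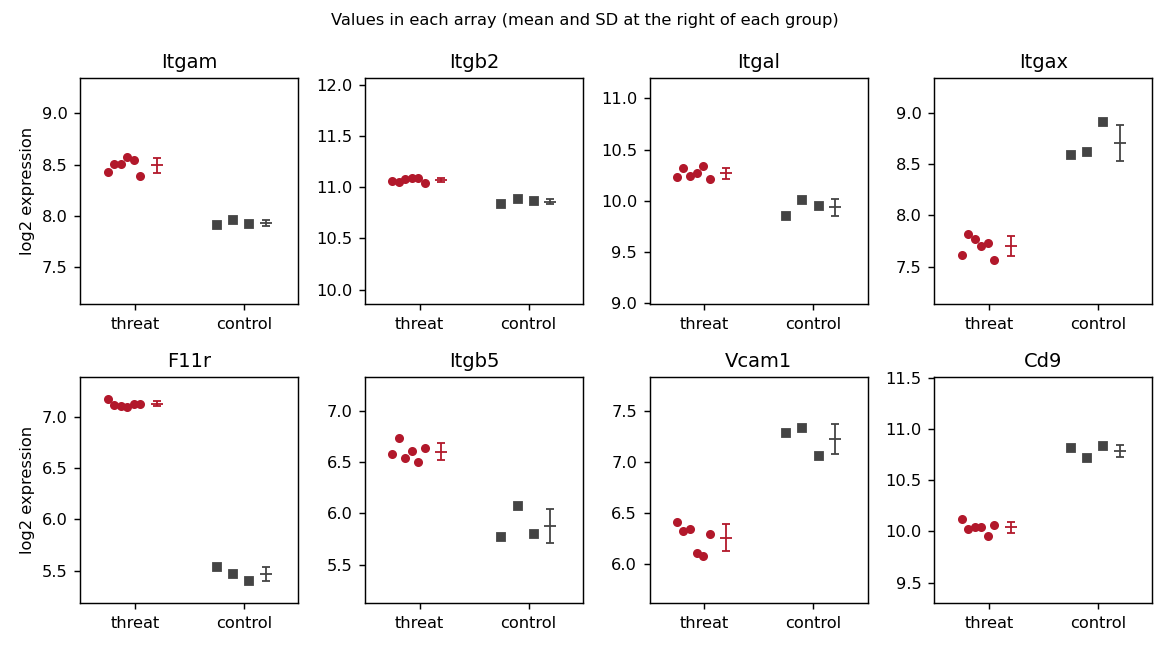
Log2 expression of 8 adhesion genes in each array (vertical axis, every panel spanning the same range of 2.2), with 6 threat animals as red circles and 3 control pools as dark grey squares, and mean and SD at the right of each group. In all 8 genes the threat values lie apart from the control values, above them for Itgam, Itgb2, Itgal, F11r and Itgb5 and below them for Itgax, Vcam1 and Cd9.

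Of 9 tested genes of the beta1 family, Itgb1 and alpha chains that pair with it, 1 rose, 1 fell and 7 did not pass. Itga5, which with beta1 forms the classical fibronectin receptor, had 8.20, a median of 8.36 and 8.52 in threat animals, against a mean of 7.88 ± 0.11 in the pools (SD, n = 3). The groups were apart and the difference was 0.47 (SE 0.076, 1.38-fold, adjusted p = 2.4e-04). All 4 Itga5 probe sets were higher in threat animals, by 0.37 to 0.56, of which 2 passed. Itga6, a laminin receptor chain that pairs with beta1 or beta4, ran from 3.79 through 4.03 to 4.05 in threat animals, against 4.55, 4.39 and 4.33 in the pools. The difference was -0.44 (SE 0.070, adjusted p = 2.0e-04), and its other tested probe set also gave -0.44 (adjusted p = 0.00181).

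Itga4, the alpha chain of the VCAM-1 receptor, differed by 0.08 (95% interval -0.05 to 0.20, adjusted p = 0.312). Itgb1 itself differed by 0.14 (95% interval -0.00 to 0.29, adjusted p = 0.101), and without threat animal 3 it was called at 0.17 (adjusted p = 0.0459). A nearly equally bright Itgb1 probe set, with a mean of 7.88 against 7.93, differed by only -0.01 (adjusted p = 0.916). A dimmer one differed by 0.10 (adjusted p = 0.24), so a rise of Itgb1 is not settled here. The collagen receptor chains Itga1 and Itga2 differed by 0.14 and -0.07 (adjusted p = 0.155 and 0.581). Itga2 depended on 1 pool: its control values were 3.14, 2.95 and 2.61, and without control pool 5-6 the difference was -0.21 (adjusted p = 0.0221). The mean of Itga2, 2.85, lay under the array medians of 3.19 to 3.22, so this value says little about Itga2. Itga3, Itga7 and Itga9 differed by 0.07, -0.04 and -0.06, with adjusted p between 0.272 and 0.674. Itga8, under the filter, had a median of 1.57 in threat animals, against 1.48, 1.57 and 1.59 in the pools.

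In the alphaV family and the beta chains beyond beta2, 2 genes rose, 2 fell and 2 did not pass. Itgb5, which with alphaV binds vitronectin, ran from 6.50 through 6.60 to 6.74 in threat animals, against 5.77, 6.07 and 5.80 in the pools. It rose by 0.73 (SE 0.073, 1.65-fold, adjusted p = 4.3e-06), and all 4 of its probe sets were called higher, by 0.48 to 0.89. Itgb3, which pairs with alphaV and, in platelets, with alphaIIb, had 3.57, a median of 3.78 and 3.98 in threat animals, against 4.13, 4.40 and 4.13 in the pools. The groups did not overlap, and the difference was -0.46 (SE 0.092, adjusted p = 0.00122), but a dimmer Itgb3 probe set differed by only -0.08 (adjusted p = 0.441). Among platelet and megakaryocyte markers 5 of 9 were called higher and 1 lower, with means per array of 4.70 to 4.80 in threat and 4.49 to 4.55 in control arrays. The platelet partner Itga2b differed by 0.14 (adjusted p = 0.102).

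Itgav itself had 8.87, a median of 8.93 and 9.16 in threat animals, against 9.13, 9.26 and 9.15 in the pools. Threat animal 5 lay inside the control range, and the difference of -0.21 (SE 0.067, adjusted p = 0.021) was lost without control pool 3-4 (-0.17, adjusted p = 0.0973). Its other tested probe sets differed by -0.17 and -0.02 and did not pass (adjusted p = 0.553 and 0.886). Itgb8, which with alphaV activates TGF-beta, differed by 0.46 (SE 0.16, adjusted p = 0.0317). It ran from 3.35 through 3.72 to 3.94 in threat animals, against 3.10, 2.90 and 3.60 in the pools, so that the groups overlapped. The call was lost without threat animal 3, 5 or 6 or control pool 1-2 or 3-4, with adjusted p between 0.0573 and 0.168. Itgb7, the partner of alpha4 and of Itgae in gut homing, differed by -0.06 (95% interval -0.17 to 0.05, adjusted p = 0.4). Itgb4, the partner of alpha6 in epithelia, differed by 0.04 (adjusted p = 0.675). Itgae and Itgb6 lay under the filter, with medians of 2.45 and 1.68 in threat animals, against control values of 2.49 to 2.58 for Itgae and 1.34 to 1.63 for Itgb6.

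Whether the 2 chains of a receptor changed by the same amount was asked within each array, as the alpha chain's log2 value minus the beta chain's. Of 17 pairs in which both genes passed the filter, 9 had probe sets that changed unequally. The test was an exact permutation over 84 divisions of the arrays, two-sided and adjusted over the 17 pairs. The share of unequal changes among other gene pairs was not computed, and 45.8% of all genes were called. The count is therefore not read as particular to integrins. Chains such as Itgb1 and Itgav recur, so the pairs are not independent. The smallest p this design can give is 0.0119, which adjusts to 0.0289 here. The permutation test covers the spread between arrays and not an unequal response of probe sets. Probe sets of 1 gene differed too: those of Vcam1 gave -0.96, -0.68 and -0.58, and those of Itgb1 0.14, -0.01 and 0.10. A gap of 0.12 or 0.36 therefore does not show on its own that 2 chains changed unequally. Itgam rose by 0.36 more than Itgb2 and Itgal by 0.12 more, whereas Itgax changed by -1.22 relative to it (exact permutation, adjusted p = 0.0289 each). Relative to Itgb5, Itgav changed by -0.94, and relative to Itgb1 by -0.35 (exact permutation, adjusted p = 0.0289 each). Itga6 changed by -0.58 relative to Itgb1 and by -0.48 relative to Itgb4, at the same p. Itgb4 had a mean of only 3.00, under the array medians of 3.19 to 3.22, so the pair with it says little about Itgb4. Itga9 and Itgb8 were dim as well, with means of 3.30 and 3.51. Itgav against Itgb8 (-0.68) and Itga9 against Itgb1 (-0.20) passed at adjusted p = 0.0450 by the exact permutation test. Itga5 gained 0.33 on Itgb1, which did not pass (exact permutation, adjusted p = 0.0810). Without a control pool no pair passed, the smallest adjusted p being 0.0759 by the exact permutation test, and without 1 threat animal 7 to 9 passed. Leaving out a pool allows only 28 divisions with a smallest p of 0.0357, which passes after adjustment only if most pairs reach it. That setting could hardly give a pass, so it does not show that the pairs depend on a pool. Averaged over each gene's probe sets, the pairs Itgal with Itgb2, Itga9 with Itgb1, Itgav with Itgb1 and Itgav with Itgb8 did not pass (exact permutation, adjusted p = 0.0607 each). With single-transcript probe sets Itga9 changed by only -0.05 relative to Itgb1 (exact permutation, adjusted p = 0.607), and this pair was also lost with quantile normalization (exact permutation, adjusted p = 0.0675). Itga5 against Itgb1 passed with single-transcript probe sets (0.38, exact permutation, adjusted p = 0.0450).

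**Figure D3:**
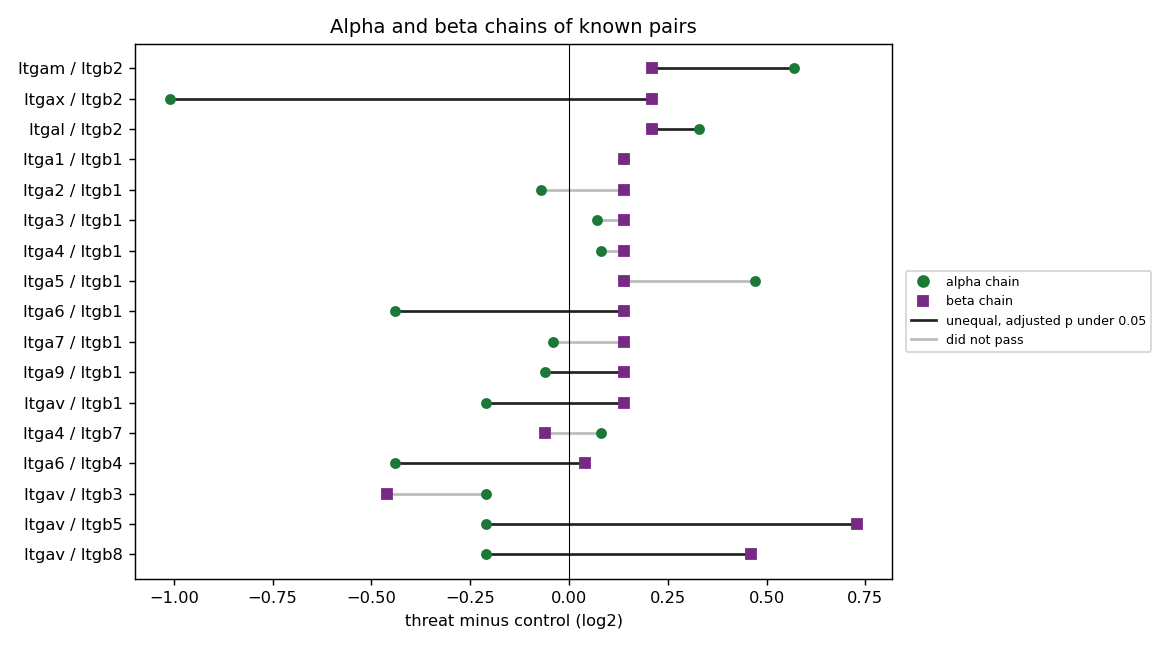
Differences of the alpha chain (green circle) and the beta chain (purple square) of 17 known integrin pairs (horizontal axis, log2, threat minus control). Black lines join pairs whose probe sets changed unequally at an adjusted exact permutation p under 0.05, and grey lines join the others. The longest line is that of Itgax at -1.01 and Itgb2 at 0.21.

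Integrin ligands of the immunoglobulin family divided. Icam1, the inducible ligand of LFA-1 and CD11b/CD18, had 9.73, a median of 9.82 and 9.87 in threat animals, against 9.45, 9.47 and 9.51 in the pools. It rose by 0.33 (SE 0.048, 1.26-fold, adjusted p = 8.8e-05) with no overlap. Vcam1, the ligand of alpha4 integrins, which spleen macrophages as well as activated endothelium express, ran from 6.08 through 6.31 to 6.41 in threat animals, against 7.28, 7.33 and 7.06 in the pools. All threat animals lay below all pools, with a difference of -0.96 (SE 0.083, 1.95-fold lower, adjusted p = 1.2e-06). Both further probe sets were called lower, at -0.68 and -0.58. Icam2, a constitutive LFA-1 ligand of endothelium and leukocytes, had a median of 4.77 in threat animals, against 4.99, 5.00 and 4.99 in the pools, a difference of -0.23 (SE 0.043, adjusted p = 6.8e-04). Icam4, a red cell molecule, differed by 0.05 (adjusted p = 0.646).

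Red pulp and marginal zone macrophage markers were divided: 6 of 10 were lower, 1 was higher and 3 did not pass, with means per array of 5.98 to 6.07 in threat and 6.65 to 6.72 in control arrays. Those called lower ran from Hpgd at -2.31 (SE 0.079) to Hmox1 at -0.20 (SE 0.070). Of the genes that define red pulp macrophages, the iron exporter Slc40a1 was called higher by 0.28 (SE 0.059), and the transcription factor Spic differed by -0.06 (adjusted p = 0.509). Cd5l and the marginal zone receptor Marco each differed by -0.12 (adjusted p = 0.135 and 0.16), and Vsig4 lay under the filter. Of 9 tested endothelial markers 1 was called lower, Stab2, which sinusoids of the spleen carry and which differed by -0.59 (SE 0.11). The endothelial genes Tek, Tie1 and Emcn lay under the filter, and the list's mean was 4.03 to 4.20 in threat and 4.11 to 4.23 in control arrays. Their part in the differences of Vcam1, Icam2 and Pecam1 was not tested.

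Selplg encodes PSGL-1, the main selectin ligand of leukocytes. It had 9.71, a median of 9.82 and 9.92 in threat animals, against 9.57, 9.51 and 9.46 in the pools. The groups were apart and the gene rose by 0.31 (SE 0.056, 1.24-fold, adjusted p = 6.0e-04). Among enzymes that give PSGL-1 its binding sugars and sulfates, 3 of 11 rose and 6 fell. That is 81.8% called, against 45.8% of all genes, with 27.3% higher against 23.8% and 54.5% lower against 22.0%. The sialyltransferase genes St3gal4 and St3gal6 rose by 0.70 (SE 0.070) and 0.35 (SE 0.067), and C1galt1c1, the chaperone of the core enzyme, by 0.24. The core enzyme gene C1galt1 fell by 0.54 on the log2 scale (SE 0.065), the branching enzyme gene Gcnt1 fell by 0.86 (SE 0.11) and the tyrosine sulfotransferase gene Tpst2 fell by 0.52 (SE 0.047). The fucosyltransferase genes differed by 0.11 for Fut7 (adjusted p = 0.142) and by -0.54 for Fut4 (adjusted p = 6.2e-04). The P-selectin gene Selp differed by -0.25 (adjusted p = 0.0682), and the E-selectin gene Sele lay under the filter.

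Junctional molecules held the largest difference of all 33 genes. F11r, which encodes JAM-A, a molecule of tight junctions that leukocytes and platelets also carry, ran from 7.10 through 7.13 to 7.17 in threat animals, against 5.54, 5.47 and 5.40 in the pools. The spread among 6 animals was 0.025 (SD), and the difference of 1.66 (SE 0.046, 3.15-fold, adjusted p = 8.8e-11) far exceeded the spread in either group. Its other probe set lay under the filter, with means of 2.56 in threat and 2.65 in control arrays, so the difference rests on 1 probe set. With both averaged, F11r differed by 0.78 (adjusted p = 2.6e-08). Pecam1, the CD31 molecule of endothelium, platelets and leukocytes, had 3.49, a median of 3.69 and 3.87 in threat animals, against 4.57, 4.50 and 4.23 in the pools. The groups did not overlap, with a difference of -0.75 (SE 0.094, 1.68-fold lower, adjusted p = 3.2e-05). Pecam1 has only 1 probe set, whose mean of 3.93 lay not far above the array medians of 3.19 to 3.22. Jam2 rose by 0.22 (SE 0.069, adjusted p = 0.0218), which was lost without control pool 1-2 (adjusted p = 0.0554) or 3-4 (adjusted p = 0.0729). Its mean of 3.57 lay near the array medians of 3.19 to 3.22. All other Jam2 probe sets lay under the filter, so this difference too rests on 1 probe set. Esam, an endothelial and platelet molecule, differed by 0.00 (95% interval -0.14 to 0.14, adjusted p = 0.987).

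Cd9, a tetraspanin that sits beside integrins in the membrane, had 9.96, a median of 10.04 and 10.12 in threat animals, against 10.81, 10.72 and 10.83 in the pools. The groups were far apart, and the difference was -0.75 (SE 0.049, 1.68-fold lower, adjusted p = 9.4e-08). Of 16 tested genes in the list of other tetraspanins, 6 were lower, 1 was higher and 9 did not pass. That is 43.8% called, near the 45.8% of all genes, with 37.5% lower against 22.0% of all genes and a median of -0.08. Cd81 differed by -0.59 (SE 0.063), Tspan13 by -0.54 (SE 0.057) and Tspan33 by -0.42 (SE 0.053), all called, and Cd53 by -0.13 (adjusted p = 0.0297). The gene called higher was Cd151, an integrin-bound tetraspanin, which rose by 0.18 (adjusted p = 0.0271).

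Cd44, the hyaluronan receptor, differed by -0.08 (95% interval -0.18 to 0.02, adjusted p = 0.193), and its other tested probe sets by -0.07 and -0.15, neither of them called. Cd47, the integrin-associated protein that signals to the receptor SIRP-alpha, had 10.31, a median of 10.36 and 10.38 in threat animals, against 10.22, 10.27 and 10.10 in the pools. This probe set was called higher by 0.15 (SE 0.049, adjusted p = 0.0239). Another, with means of 8.43 in threat and 8.76 in control arrays, was called lower by -0.33 (SE 0.084, adjusted p = 0.0086 among 27022 probe sets, 39.8% of which were called), and 3 more did not pass. Cd47 therefore has no settled direction here, and it was the only one of 15 adhesion genes with several tested probe sets that was called both ways. Of the other genes in that set, 5 had every tested probe set called in 1 direction, 4 had some called and some not, and 5 had none called. The CD47 ligand genes Sirpa and Thbs1 differed by 0.21 (SE 0.055) and -0.97 (SE 0.066), both called.

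**Figure D4:**
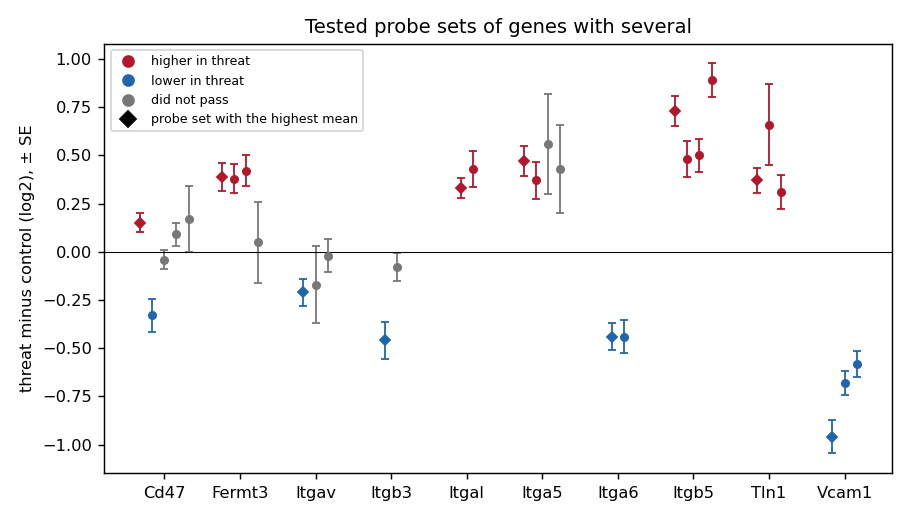
Differences (vertical axis, log2, threat minus control, bars ± SE) of the tested probe sets of 10 adhesion genes, with the probe set used in the text as a diamond. Those of Vcam1, Itgb5, Tln1, Itgal and Itga6 were all called in 1 direction, and those of Cd47 ran from -0.33 to 0.17.

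Both integrin activators rose. Fermt3, or kindlin-3, ran from 10.04 through 10.19 to 10.26 in threat animals, against 9.64, 9.74 and 9.95 in the pools. The difference was 0.39 (SE 0.071, 1.31-fold, adjusted p = 6.5e-04), and 2 further probe sets gave 0.38 and 0.42. The remaining one, the only one whose name marks it as specific to a single transcript, differed by 0.05 (SE 0.21, adjusted p = 0.881). Tln1, or talin-1, had 8.59, a median of 8.75 and 8.83 in threat animals, against 8.37, 8.45 and 8.27 in the pools. It rose by 0.37 (SE 0.063, 1.29-fold, adjusted p = 3.7e-04), and its other probe sets by 0.66 and 0.31.

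Genes that carry integrin signals and link integrins to actin were examined from lists chosen with the same earlier results known. Of 27 tested genes of activation and linkage, 16 rose and 7 fell, 85.2% called, with a median of 0.20. The share was 45.8% of all genes and 65.9% of all genes with a mean of at least 6, as most of this list had. Of those brighter genes 35.1% were higher and 30.9% lower, against 59.3% and 25.9% in the list. The linkers Actn1 (0.94, SE 0.082), Vcl (0.53, SE 0.057) and Flna (0.44, SE 0.064) rose. So did the adaptors Skap2 (0.56, SE 0.047) and Fyb (0.48, SE 0.062), the kinase partner Ilk (0.40, SE 0.051) and the small GTPase gene Rap1b (0.23, SE 0.046). Cyth1, an exchange factor known for its binding to the beta2 tail, fell by 1.06 on the log2 scale (SE 0.060), and its binding partner Cytip fell by 0.71 (SE 0.042). The kinase Stk4, or MST1, differed by -0.34 (SE 0.047) and was called lower. Actn4 and Rap1a, close relatives of Actn1 and Rap1b, were called lower as well, at -0.26 (SE 0.047) and -0.13 (SE 0.046), as was the parvin gene Parvb at -0.27 (SE 0.090).

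In the list of signalling below integrins, 7 of 17 rose and 3 fell, with a median of 0.08. That is 58.8% called, against 45.8% of all genes and 65.9% of all genes with a mean of at least 6. The kinases Syk (0.59, SE 0.055) and Fgr (0.57, SE 0.061), the adaptors Lcp2 (0.40, SE 0.050) and Dok2 (0.48, SE 0.045) and the GTPase Rac2 (0.92, SE 0.059) rose. Dock2, an exchange factor for Rac proteins, differed by -0.27 (SE 0.044) and was called lower. Among ligands of integrins, CD44 and CD47, 3 of 8 tested genes rose and 2 fell, while 8 more lay under the filter. Of those tested 62.5% were called, against 45.8% of all genes. Fibronectin, Fn1, differed by -0.13 (adjusted p = 0.241) and the laminin chain Lamc1 by 0.50 (SE 0.097). Of 17 further adhesion receptors, 3 rose and 5 fell, with a median of -0.07. That is 47.1% called, near the 45.8% of all genes, with 29.4% lower against 22.0% and 17.6% higher against 23.8%. Alcam fell by 0.75 on the log2 scale (SE 0.063) and Cadm1, a dendritic cell and mast cell molecule, fell by 1.12 (SE 0.075). Mcam, the CD146 molecule of endothelium, rose by 0.52 (SE 0.062), and the urokinase receptor Plaur differed by -0.10 (adjusted p = 0.220).

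**Figure D5:**
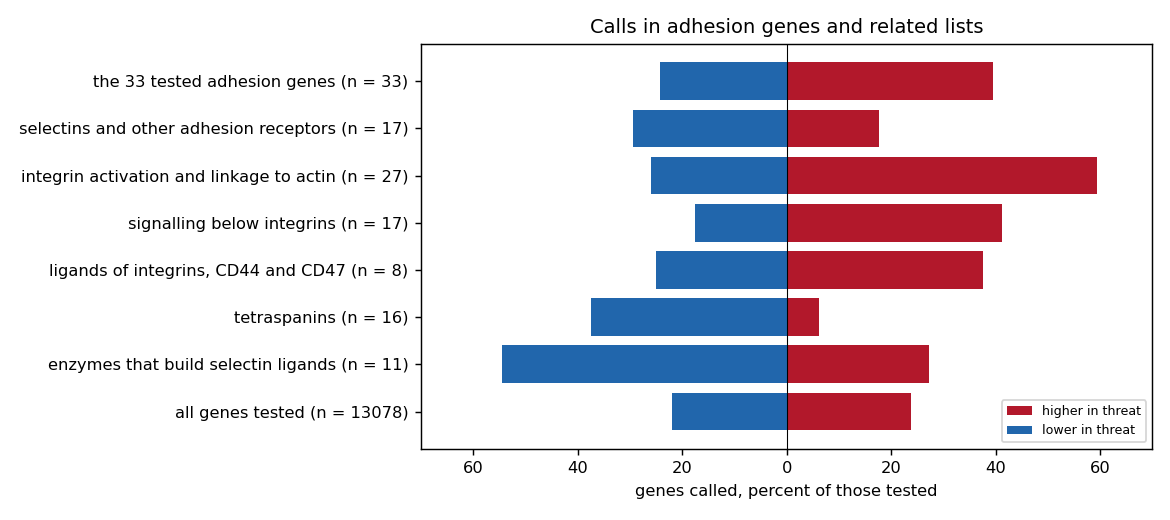
Percent of tested genes called higher (red, to the right) and lower (blue, to the left) in threat animals for the 33 adhesion genes, 6 related lists and all 13078 genes. The list of integrin activation and linkage to actin has 59.3% higher and 25.9% lower, against 23.8% and 22.0% of all genes. Among all genes with a mean of at least 6, not drawn here, 35.1% are higher and 30.9% lower.

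Among the 6 threat animals no animal was highest or lowest in most of the adhesion genes, and a common order was not tested. Animal 6 had the lowest value in 10 of the 33 tested genes, among them Itgam, Itgb2, Itgal and Itgax, and animal 2 in 1. Each animal had the highest value in 4 to 7 genes. The mean of the 15 granulocyte markers fell between 9.87 and 10.33 in these animals, against 8.65, 8.56 and 8.49 in the control pools. Set against that mean over the 6 animals, Itgam had a Pearson r of 0.01 (exact permutation p = 0.985, adjusted 0.985) and a Spearman rho of -0.31 (exact permutation p = 0.564, adjusted 0.869). Without the 2 animals farthest from the median, r was -0.96 over 4 animals, so the value rests on which animals are used. Itgb2 had an r of 0.06 and a rho of -0.26 (exact permutation p = 0.901 and 0.658, adjusted 0.960 and 0.869), and r was -0.79 without those animals. Of the 33 genes, 3 had an unadjusted exact permutation p under 0.05 by Pearson r and 3 by Spearman rho. None had an adjusted p under 0.05 by either. The r of Itga3 was -0.94 (exact permutation p = 0.0153), that of Itgb8 -0.87 (exact permutation p = 0.0403) and that of Itgav -0.84 (exact permutation p = 0.0306), each adjusted to 0.397. Without the 2 animals farthest from the median, these were -0.76, -0.75 and -0.07 in the same order. By Spearman rho the 3 genes were Itga3 (-0.89), Itgb8 (-0.94) and Vcam1 (0.89), each with an exact permutation p adjusted to 0.367. Itgav had a rho of -0.71 (exact permutation p = 0.136, adjusted 0.642).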

How the data were processed

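Expression was measured in CD11b+ spleen cells of 6 threat animals and 3 control pools. For each array the authors deposited log2 values by probe set. The submitters' processing notes name RMA, whose version is not given in the sources used here. The values span 0.607 to 13.567, from which base 2 was inferred. RMA makes array distributions alike, so a change in total RNA per cell would not be seen, and it gives no detection call.

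Groups and replicate names came from the sample titles. The platform annotation ties 34945 of 45037 non-control probe sets to 1 gene, and 34741 of these had their symbols updated by Entrez number to RefSeq, assembly GRCm38.p6. Each gene was read from its brightest probe set by mean over all 9 arrays. Genes with a mean at or above the 40th percentile of probe sets that are not controls, 2.66, were tested: 13078 of 18193. The difference, threat minus control, was fitted over all of them with limma 3.58.1 in R 4.3.3 (lmFit and eBayes, equal weights, 1 shared spread), two-sided, with Benjamini-Hochberg adjustment at 0.05. SEs and intervals are limma's moderated ones. The fit was tested on simulated data. The members and lists were chosen with earlier results of these data known.

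Every adhesion gene is named. From each related list the rule names 3 called genes (lowest p) and the brightest gene, and from each marker list the gene of lowest p and the brightest. Marker genes are printed only where a result turns on them, and other list genes were picked after their values were seen. Exact permutation tests ran over all 84 divisions of the arrays, or over the 720 orders of 6 animals. The number of arrays limits the precision of every value. Alternatives covered filters, the choice of probe set, normalization, limma settings, array weights, animals averaged by number, a block and leaving out each array. Promoter windows are those of RefSeq on GRCm38.p6.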

Additional observations from a re-analysis of the deposited data

How the results depend on the processing

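The counts of adhesion genes called higher (13) and lower (8) ran from 11 to 14 and from 7 to 9 over the alternatives, and the count of all genes called ran from 5310 to 6283 against 5995. The median difference of the adhesion genes, 0.07, was 0.04 when probe sets were averaged, 0.04 with single-transcript probe sets and 0.05 to 0.08 when 1 array was left out. With single-transcript probe sets preferred, Cd47 turned to -0.33 (adjusted p = 0.00537), since that choice takes its probe set at -0.33. A further Cd47 probe set at -0.04 was not called (adjusted p = 0.515). In the same setting Fermt3 was 0.05 (adjusted p = 0.871). With probe sets averaged, Cd47 was 0.01 (adjusted p = 0.924) and Itgav -0.10 (adjusted p = 0.262), while F11r at 0.78 and Itgb3 at -0.27 stayed called. When threat animals were averaged by number to match the pools, the calls of Itgb8 (adjusted p = 0.0756) and Cd47 (adjusted p = 0.0676) were lost. Without control pool 5-6, Cd47 was 0.10 (adjusted p = 0.116). The numbers 1-2, 3-4 and 5-6 are not known to pair threat animals with control pools, and the correlations of deviations from the group means were 0.15, -0.15 and -0.03. With them as a replicate block, 14 adhesion genes were higher, Itga1 being added (adjusted p = 0.0466), 8 were lower and 5945 genes were called in all. No change of call among the 33 genes came from quantile normalization, median centring, no filter, the limma settings or array weights. At the 60th percentile filter 25 of the 33 were tested, and their calls were the same. Leaving out a control pool allows 28 divisions with a smallest exact permutation p of 0.0357, and none of the 17 chain pairs passed there. After adjustment a pass would need most pairs to reach that p, so this setting could hardly give one. The causes of these changes were not tested.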
